A study of Mus musculus with 2 samples.

Results

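The genes described here are the 44 members of the MAP kinase and IKK cascade, of 55536 annotated genes measured. They were taken by symbol as known pathway components, a choice whose rule uses no measured value but which was made with earlier results of these data known. The list holds 1 MAP4K, 11 MAP3K, 3 TAB adaptors, 7 MAP2K, 9 MAPK, 6 kinases that MAPKs activate, the 3 parts of the IKK complex, and 4 genes of the IKK-related kinases and their adaptors. RNA came from bone marrow-derived macrophages, which are primary phagocytes grown from mouse marrow, of strain C57BL/6J. Cells received 100 ng/ml of lipid A for 12 h, were washed out for 12 h, and received 100 ng/ml again for 120 minutes. Other label fields call the agent lipoprotein A, and age and sex were not collected. The 2 polyA plus RNA-seq libraries, each from 1 µg of RNA, form 1 group. They carry the replicate numbers 1 and 2 and are called biological replicates, but have a single donor identifier. Whether the spread between them is biological or technical therefore cannot be told. With no untreated or singly treated library analysed here, every value describes cells that met the agent for the second time, and no change caused by it can be read from them.

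Receptors of bacterial products such as TLR4, which binds lipid A, pass their signal through ubiquitin chains to the kinase TAK1, encoded by Map3k7, and its TAB adaptors. TAK1 and other MAP3Ks phosphorylate MAP2Ks, and MAP2Ks phosphorylate a threonine and a tyrosine of the typical MAPKs. The MAPKs ERK, JNK and p38 act on transcription factors and on kinases such as MK2 that control cytokine mRNA. TAK1 also activates the IKK complex, which marks inhibitors of NF-κB for degradation, while the related kinases TBK1 and IKKε activate IRF3 and thus interferon genes. All of this runs by phosphorylation, so mRNA levels give the supply of parts and not their activity.

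The libraries held 45377715 (replicate 1) and 32112416 (replicate 2) expected counts, which are estimated reads per gene, and the 44 genes took 159438 and 127172 of them. A count of 3 reads corresponds to 0.0661 and 0.0934 CPM, which is counts scaled to a common library size. All 8 macrophage markers looked at were at 10 TPM or more in both libraries. TPM is a level per transcript length, scaled to the same total in each library. The 8 neutrophil markers summed to 63.5 TPM in replicate 1 and 6.58 TPM in replicate 2, with S100a9 at 26.4 and 1.18 TPM, while Ly6g was at 0 in both. Marker lists of T, B, NK, mast, erythroid and stromal cells had no gene at 1 TPM in both libraries.

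The MAPKs differ in a short activation segment, which MAP2Ks modify in the typical MAPKs. It is shown here because classes named below, such as JNK and p38, differ in it. Each sequence is the coding strand read from the GENCODE M21 transcripts (build mm10), and the capitals mark the 3 codons of the modified site. The site of Mapk3 (ERK1) lies in an exon at chr7:126763440-126763484 on the + strand, codons 203 to 205, and that of Mapk7 (ERK5) at chr11:61491404-61491448 on the − strand. Both spell threonine, glutamate and tyrosine. The sites of Mapk8 (JNK1, chr14:33392985-33393029, −) and Mapk9 (JNK2, chr11:49872812-49872856, +) spell threonine, proline and tyrosine. The site of Mapk14 (p38α, chr17:28728381-28728425, +) spells threonine, glycine and tyrosine. Mapk6 (ERK3), an atypical MAPK, has serine, glutamate and glycine, and its stretch crosses a splice junction within chr9:75395619-75397587 on the − strand.
Mapk3: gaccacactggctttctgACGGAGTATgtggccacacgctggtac
Mapk7: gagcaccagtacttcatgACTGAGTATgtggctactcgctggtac
Mapk8: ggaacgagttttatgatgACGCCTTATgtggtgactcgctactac
Mapk9: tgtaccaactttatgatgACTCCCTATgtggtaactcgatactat
Mapk14: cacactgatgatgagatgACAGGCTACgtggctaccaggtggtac
Mapk6: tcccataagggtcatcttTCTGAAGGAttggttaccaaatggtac

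Most of the cascade was present. Of the 44 genes, 41 were at 1 TPM or more in both libraries, against 44.4% of protein-coding genes. At 10 TPM or more there were 30, against 27.2%, and at 100 TPM or more there were 4, against 5.20%. The median of the members' mean level was 27.8 TPM, beside 18.2 TPM over protein-coding genes at 1 TPM or more in both libraries. The members were picked as genes known to matter in immune cells, so their larger share above 1 TPM is a description only. The genes at 100 TPM or more were Mapkapk2, Ikbke, Tank and Mapk3. The p38 paralogs Mapk11, Mapk12 and Mapk13 were the members below 1 TPM.

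**Figure D1:**
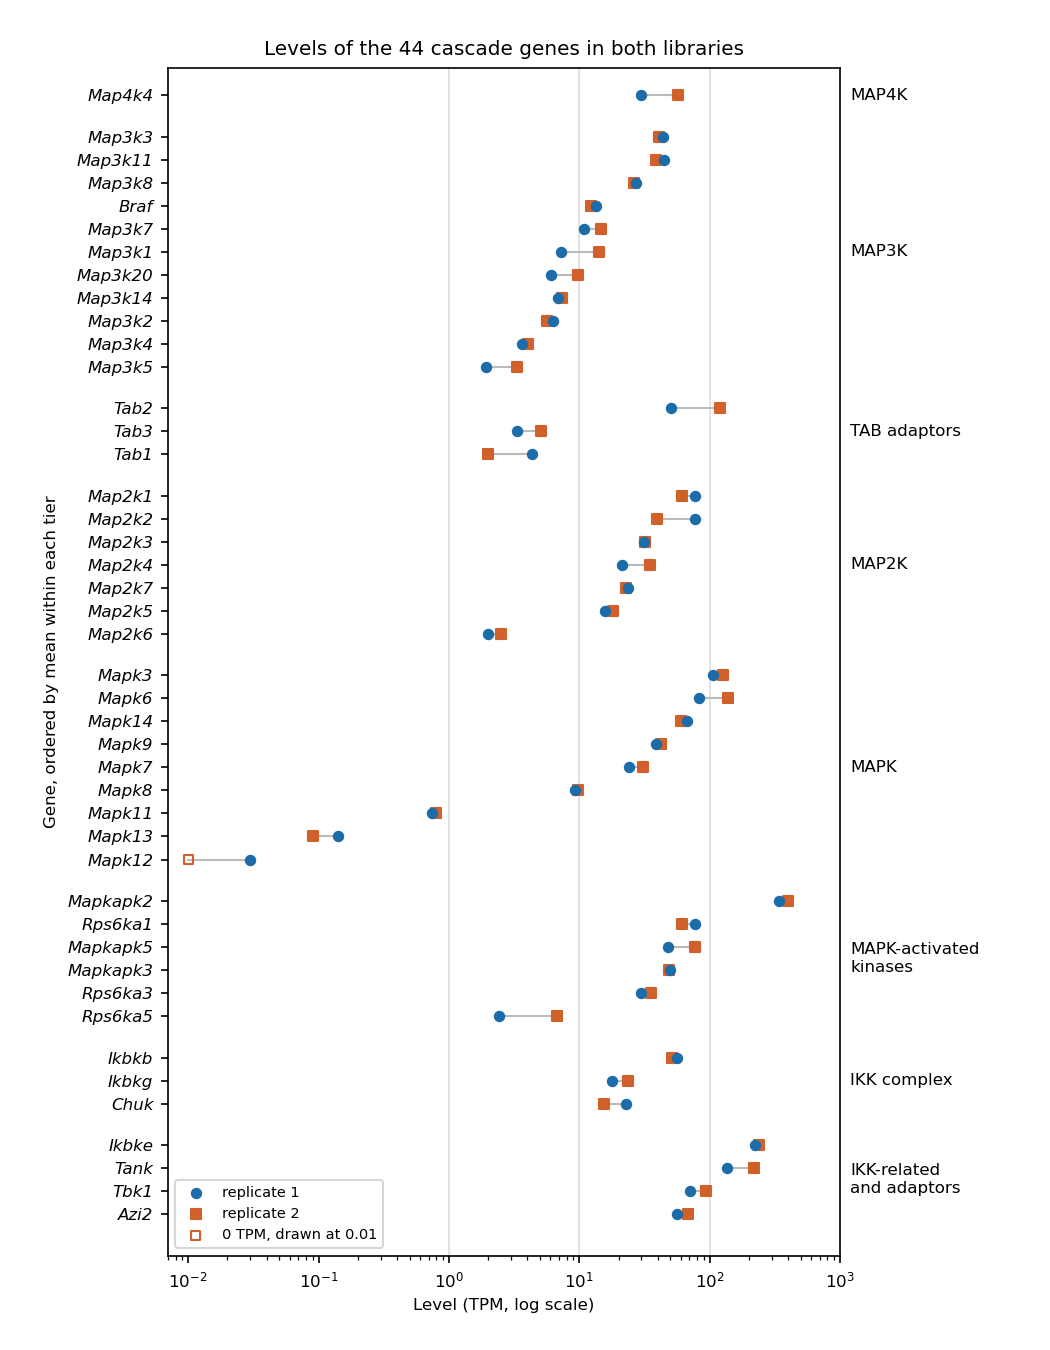
Level of each of the 44 genes in TPM on a log axis, grouped by tier and ordered by mean level, with a circle for replicate 1, a square for replicate 2 and a line between them. Mapkapk2 lies furthest to the right at 341 and 397 TPM, and Mapk11, Mapk13 and Mapk12 lie left of 1 TPM, with the 0 of Mapk12 in replicate 2 drawn as an open square at 0.01 TPM.

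At the entry of the cascade, Map4k4, a kinase that feeds the JNK branch, was at 29.8 TPM in replicate 1 and 57.0 TPM in replicate 2 (mean 43.4 ± 19.2, SD, n = 2). Among the 11 MAP3Ks the median mean level was 10.7 TPM, and 5 were at 10 TPM or more in both libraries. That median is the mean of Map3k1, whose TPM in replicate 2 includes a short retained-intron transcript, as described below. By a second quantification, also described below, the median was 8.60 TPM. Map3k3 (MEKK3) led with 44.2 and 41.2 TPM (42.7 ± 2.11), and Map3k11 (MLK3), a JNK pathway MAP3K, followed with 44.7 and 39.0 TPM (41.8 ± 4.04). The ranges of these 2 genes overlapped, so their order is not fixed by these libraries. Map3k8 (TPL2), the MAP3K that links TLR signals to MEK and ERK in macrophages, was at 27.4 and 26.3 TPM (26.8 ± 0.778). Its range lay apart from the genes above and below it. Braf, which also acts on MEK, was at 13.3 and 12.4 TPM, and Map3k7 (TAK1) at 10.8 and 14.6 TPM (12.7 ± 2.64), with overlapping ranges.

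The other MAP3Ks lay lower, and each had a mean below that of TAK1. Map3k1 (MEKK1) was at 7.30 and 14.1 TPM, a spread that was not seen in its read count, as described below. Map3k20 (ZAK), a sensor of ribosome stalling, was at 6.09 and 9.83 TPM. Map3k14 (NIK), the kinase of the noncanonical NF-κB pathway, was at 6.83 and 7.37 TPM. The ranges of Map3k7, Map3k1, Map3k20 and Map3k14 overlapped from each gene to the next. Map3k2 (MEKK2) at 6.25 and 5.69 TPM, Map3k4 (MEKK4) at 3.65 and 4.06 TPM and Map3k5 (ASK1, a MAP3K of oxidative stress) at 1.91 and 3.33 TPM closed the order, each apart from the next. By the second quantification the ranges of Map3k4 (2.96 and 3.88 TPM) and Map3k5 (1.79 and 3.23 TPM) overlapped.

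Of the TAB adaptors that hold TAK1 on its substrates and on ubiquitin chains, Tab2 made up most of the mRNA. Tab2 was at 50.5 TPM in replicate 1 and 120 TPM in replicate 2 (85.0 ± 48.9), Tab3 at 3.34 and 5.08 TPM, and Tab1 at 4.35 and 1.99 TPM. Tab2 thus held 86.8% and 94.4% of the summed level of the 3 genes. The ranges of Tab3 and Tab1 overlapped, and Tab2 lay apart from both. Its mean was also above that of every MAP3K among the members, TAK1 included.

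The 7 MAP2Ks had a median mean level of 28.1 TPM, and 6 of them were at 10 TPM or more in both libraries. Map2k1 (MEK1) was at 76.6 and 61.4 TPM (69.0 ± 10.7) and Map2k2 (MEK2) at 77.3 and 39.3 TPM (58.3 ± 26.9). Which of these ERK kinases was higher differed between the libraries, as Map2k1 held 49.8% of their sum in replicate 1 and 61.0% in replicate 2. For p38, Map2k3 (MKK3) was at 31.5 and 31.7 TPM (31.6 ± 0.113) against 2.00 and 2.50 TPM for Map2k6 (MKK6), and it held 94.0% and 92.7% of the pair. For JNK, Map2k4 (MKK4) was at 21.2 and 35.01 TPM (28.1 ± 9.74) and Map2k7 (MKK7) at 23.6 and 22.7 TPM (23.2 ± 0.608). The share of Map2k4 was 47.4% in replicate 1 and 60.6% in replicate 2, so the order of this pair also turned between libraries. Map2k5 (MEK5), the activator of ERK5, was at 15.6 and 18.3 TPM.

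Among the 9 MAPKs the ERK1 gene Mapk3 was at 107 and 127 TPM (117 ± 14.5) and Mapk6 at 83.6 and 138 TPM (111 ± 38.6). Their ranges overlapped, and both lay apart from Mapk14 (p38α) at 67.4 and 60.7 TPM (64.0 ± 4.74). Mapk9 (JNK2) was at 38.5 and 42.5 TPM (40.5 ± 2.84), and Mapk7 (ERK5) at 24.1 and 30.7 TPM (27.4 ± 4.67). From Mapk14 downwards each gene lay apart from the next. Mapk8 (JNK1) was at 9.30 and 9.80 TPM, and Mapk9 held 80.5% and 81.3% of the sum of both genes. Mapk10, the further JNK gene, was not among the members.

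The p38 family was close to a single gene at this level. Mapk14 held 98.7% and 98.6% of the sum of the 4 paralogs. Mapk11 (p38β) was at 0.740 and 0.790 TPM, from 51 and 37 reads. Mapk13 (p38δ) had 4 reads in replicate 1 and 1 in replicate 2, and Mapk12 (p38γ) had 1 and 0, so the reads of Mapk12 were below the floor of 3 reads in both libraries and those of Mapk13 in replicate 2.

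The kinases that MAPKs activate had a median mean level of 55.9 TPM, and their tier holds the most abundant member. Mapkapk2 (MK2), the p38 target that stabilizes mRNAs with AU-rich elements such as that of TNF, was at 341 and 397 TPM (369 ± 39.5). Mapkapk5 (MK5), which binds ERK3 and ERK4, was at 48.1 and 77.2 TPM (62.7 ± 20.6), and Mapkapk3 (MK3) at 49.6 and 48.8 TPM (49.2 ± 0.580). The level of Mapkapk5 sums longer, shorter and noncoding transcripts, as described below. Mapkapk2 held 77.8% and 75.9% of the summed level of these 3 kinases. The RSK kinases, targets of ERK, were at 77.6 and 61.0 TPM for Rps6ka1 (RSK1, 69.3 ± 11.8) and at 30.0 and 35.7 TPM for Rps6ka3 (RSK2, 32.8 ± 4.02). Rps6ka1 held 72.1% and 63.1% of this pair. Rps6ka5 (MSK1), a nuclear kinase of CREB and histone H3, was the lowest of the tier at 2.44 and 6.75 TPM. The ranges of Rps6ka1 and Mapkapk5 and those of Mapkapk5 and Mapkapk3 overlapped.

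In the IKK complex the catalytic subunit gene Ikbkb (IKKβ) was at 55.7 and 51.4 TPM (53.6 ± 3.05), above Chuk (IKKα), which also serves the noncanonical pathway, at 22.9 and 15.5 TPM (19.2 ± 5.22). Ikbkb held 70.9% and 76.8% of this pair. Ikbkg (NEMO), the regulatory subunit that binds ubiquitin, was at 17.8 and 23.8 TPM (20.8 ± 4.24). Its range overlapped that of Chuk, and Ikbkb lay apart from both.

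The tier of the IKK-related kinases and their adaptors had the highest median, 130 TPM over 4 genes, with 2 of them at 100 TPM or more in both libraries. Ikbke (IKKε), the inducible partner of TBK1, was at 224 and 240 TPM (232 ± 11.3), and Tbk1 at 70.6 and 94.1 TPM (82.4 ± 16.6). Ikbke held 76.0% and 71.8% of the pair. The scaffold Tank was at 137 and 219 TPM (178 ± 57.8) and the adaptor Azi2 (NAP1) at 56.0 and 68.7 TPM (62.3 ± 9.02), which gave Tank 71.0% and 76.1%. The 4 genes lay apart from one another in these values. By the second quantification, described below, Tbk1 was at 67.6 and 93.3 TPM and Azi2 at 58.3 and 74.7 TPM, and these ranges overlapped. Over all tiers, 13 of 36 neighbouring pairs in the order of levels had ranges that overlapped in the main quantification.

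**Figure D2:**
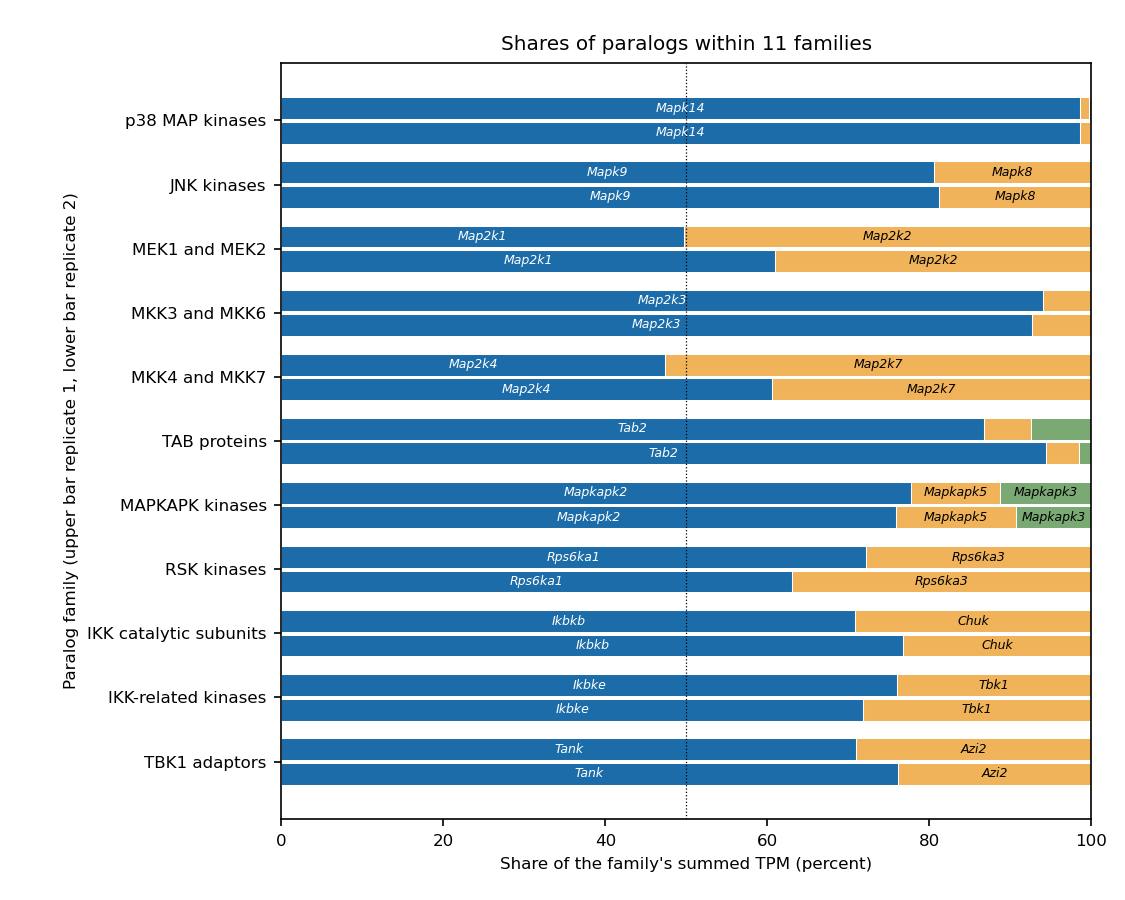
Share of each paralog in the summed TPM of its family, in percent, for 11 families, with replicate 1 in the upper and replicate 2 in the lower bar. A single gene holds most of the sum in both libraries in all families but MEK1 with MEK2 and MKK4 with MKK7, where the dotted line at 50% is crossed between the libraries.

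In 9 of the 11 families the leading paralog was the same in both libraries and in both quantifications that were deposited. Both were made from the same reads, so this compares methods and not samples. The families in which the order turned were MEK1 with MEK2 and MKK4 with MKK7.

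Other kinases of the same cascades, outside the list, had a median mean level of 3.30 TPM, beside 27.8 TPM for the members. Of 27 such genes, 9 were below 1 TPM in both libraries, so the median depends on which genes were listed. Of the same 27, 18 were at 1 TPM or more in both libraries, 9 at 10 TPM or more and none at 100 TPM or more. Among those with the highest mean were Taok3, a MAP3K of the p38 and JNK branches, at 73.9 and 114 TPM, Araf at 52.6 and 56.1 TPM, and the ERK and p38 target Mknk1 at 53.1 and 55.2 TPM. Taok3 and Araf had means above that of every MAP3K among the members. Of 16 scaffolds and binding partners, 13 were at 1 TPM or more, 11 at 10 TPM or more and 4 at 100 TPM or more in both. Those 4 were Lamtor1 (301 and 200 TPM) and Lamtor3 (109 and 103 TPM), which tether MEK1 and ERK to late endosomes, the kinase cochaperone Cdc37 (177 and 248 TPM) and Nfkb1 (183 and 240 TPM), whose precursor holds TPL2.

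The 2 libraries were next set against each other gene by gene. The ratio of replicate 2 to replicate 1 was taken from expected counts after TMM scaling, for genes with a mean of at least 10 counts, which 42 of the 44 members had. With 1 library on each side the ratio has no test, and the intervals given (95%, exact Clopper-Pearson) cover counting error only. Of the 42 members, 3 differed by 2-fold or more, against 11.3% of all 12552 genes with enough reads. The median size of the difference was 1.23-fold for members and 1.29-fold for all genes.

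Tab2 had 6228 reads in replicate 1 and 9441 in the smaller library of replicate 2, a log2 ratio of 1.17 (1.13 to 1.22), or 2.25-fold higher in replicate 2. Rps6ka5 had 345 and 509 reads, a log2 ratio of 1.13 (0.93 to 1.33). Of these, its main coding transcript Rps6ka5-209 had 335.9 and 434.5 reads. Its processed transcripts Rps6ka5-206 and Rps6ka5-208 had 0 in replicate 1 and 19.4 and 33.9 in replicate 2. Whether the coding transcript alone passes 2-fold by counts was not tested. Tab2 and Rps6ka5 were both higher in replicate 2, a direction in which 5.34% of all genes passed 2-fold. Tab1 had 343 and 103 reads, a log2 ratio of −1.16 (−1.50 to −0.84), or 2.23-fold higher in replicate 1, where 5.97% of all genes passed. The intervals of Rps6ka5 and Tab1 reached below 2-fold, and that of Tab2 did not. The nearest member under the threshold was Map2k2, with 3454 and 1167 reads and a log2 ratio of −0.99 (−1.09 to −0.90). Scaled by library totals in place of TMM, it passed, at −1.07. Tab2 and Tab1, adaptors that hold the same kinase, thus lay on opposite sides in the same pair of libraries.

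Smaller differences leaned to replicate 2. The ratio was above 1 for 30 of the 42 members, against 48.8% of all genes, and for 26 with library totals in place of TMM, which gave 42.9% of all genes. By TPM it was 28 members, against 49.8%. All 4 genes of the IKK-related tier were on that side, from Ikbke at a log2 ratio of 0.13 to Tank at 0.69. So were 6 of the 7 MAPKs with enough reads and 5 of the 6 MAPK-activated kinases, of which Mapk9 and Mapkapk3 crossed to the other side with library totals, and Mapkapk3 with TPM. In the other tiers the lean was less uniform, with 6 of 11 MAP3Ks, 5 of 7 MAP2Ks, 2 of 3 TAB adaptors and 1 of 3 genes of the IKK complex on that side, of which Map3k8 and Map2k3 crossed with library totals. In the MAPK and MAPK-activated tiers the exceptions were Mapk14 at −0.31 (−0.38 to −0.25) and Rps6ka1 at −0.34 (−0.41 to −0.28). The neutrophil markers with enough reads were higher in replicate 1, at log2 ratios from −2.70 for S100a8 to −4.33 for S100a9, and at these levels their part in the members' ratios was not tested. In bulk RNA, fewer cells of a type and less RNA per cell cannot be told apart.

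**Figure D3:**
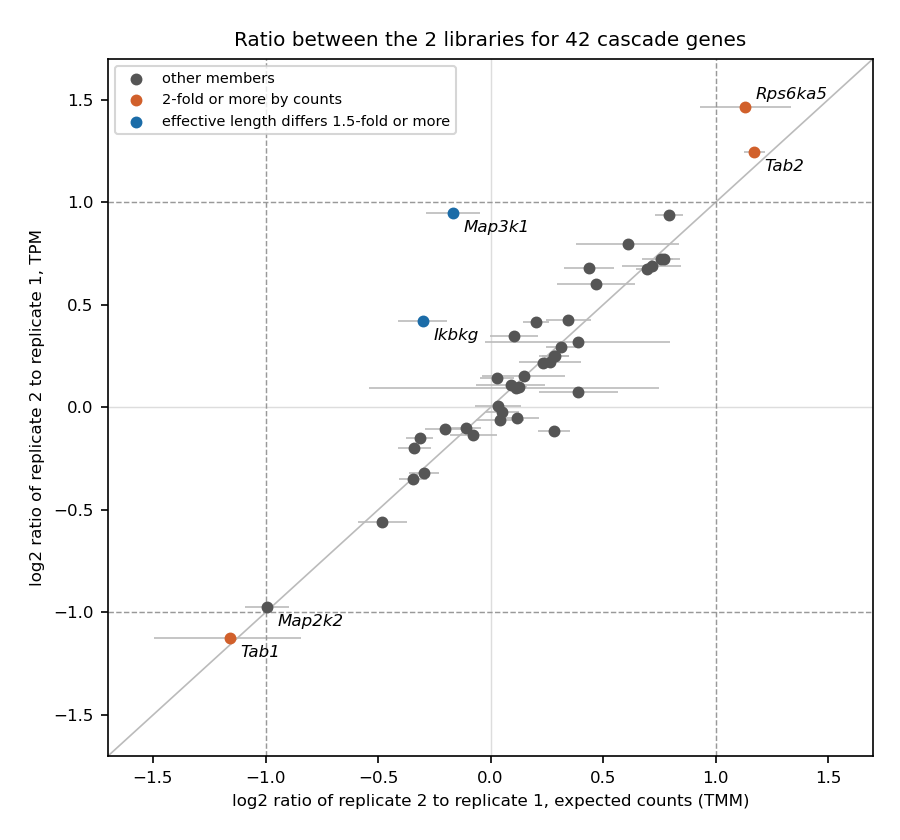
The log2 ratio of replicate 2 to replicate 1 from expected counts (horizontal axis, bars are 95% counting intervals) and from TPM (vertical axis) for 42 genes, with dashed lines at 2-fold. Tab2 and Rps6ka5 lie beyond 2-fold at the upper right and Tab1 at the lower left, and Map3k1 and Ikbkg lie far above the diagonal, with negative count ratios and positive TPM ratios.

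For 6 of the 42 members the ratio by TPM had the opposite sign to the ratio by counts, against 8.82% of all genes. In Ikbkb the log2 ratio was 0.28 (0.21 to 0.35) by counts and −0.12 by TPM, and in Map3k8, Map2k7 and Mapkapk3 neither ratio was beyond 0.12 in size. The ratios of Map3k1 lay furthest apart. It had 1527 reads in replicate 1 and 915 in replicate 2, a log2 count ratio of −0.17 (−0.29 to −0.05), while its TPM went from 7.30 to 14.1, a log2 ratio of 0.95. The effective length by which reads are divided, an average over a gene's transcripts weighted by abundance, was 6662 bases in replicate 1 and 3057 in replicate 2. A short retained-intron transcript, Map3k1-205 (544 bases), was given 0.29 reads in replicate 1 and 44.5 in replicate 2, and with them 54.7% of the gene's TPM in replicate 2. The full-length Map3k1-201 was at 7.27 and 6.11 TPM. By the second quantification Map3k1-201 led in replicate 2 too, with 52.8% against 42.8% for Map3k1-205.

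Ikbkg showed the same discrepancy with 1952 and 1066 reads, a log2 count ratio of −0.30 and a log2 TPM ratio of 0.42, as its effective length went from 3501 to 2115 bases. Of the 42 members with enough reads, these 2 had an effective length that differed 1.5-fold or more, against 5.39% of all genes, a threshold set after the values were seen. Mapk13, with 4 reads and 1, also passed it but was below the count minimum. The short coding transcript Ikbkg-216 (718 bases) was at 0.590 and 8.07 TPM. For Ikbkg a further limit is that 418 exonic bases are shared with the abundant gene G6pdx on the opposite strand (9967 and 9137 reads), and whether reads were counted by strand is not given in the sources used here. In all, 10 members share exonic bases with another annotated gene, and 4 members (Map3k11, Map2k7, Mapk6 and Mapkapk5) had counts that were not whole, as estimates that divide reads among genes can be.

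Transcript shares were examined for the 41 members at 1 TPM or more in both libraries, all of which have several annotated transcripts. In 30 of them the leading transcript held less than 90% of the gene's TPM in at least 1 library, against 71.7% of all such genes. The leading transcript differed between libraries for 7 members, against 14.5%, and between quantifications for 7, against 19.2%. The members' shares were thus near those of all genes. The median share of protein-coding transcripts was 95.6% in replicate 1 and 95.8% in replicate 2.

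The JNK genes each carry a pair of exclusive exons in the substrate-binding part of the kinase domain, and these are shown because both genes used mainly the same member of the pair, while the share itself moved with the quantification. Each is a whole coding exon of 72 bases, and the capitals mark the bases that differ within the pair. For Mapk8, on the − strand of mm10, the first exon along the transcript is at chr14:33390673-33390744 and the second at chr14:33390242-33390313. For Mapk9, on the + strand, the first is at chr11:49873836-49873907 and the second at chr11:49874264-49874335.
Mapk8 first exon: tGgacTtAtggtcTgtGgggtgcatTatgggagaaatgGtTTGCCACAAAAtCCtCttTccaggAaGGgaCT
Mapk8 second exon: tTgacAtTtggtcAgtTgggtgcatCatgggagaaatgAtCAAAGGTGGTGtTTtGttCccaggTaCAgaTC
Mapk9 first exon: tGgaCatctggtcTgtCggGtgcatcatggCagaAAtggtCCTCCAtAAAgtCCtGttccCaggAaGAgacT
Mapk9 second exon: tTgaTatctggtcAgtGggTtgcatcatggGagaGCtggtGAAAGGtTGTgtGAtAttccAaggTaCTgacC

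Within the pair 27 bases differ in Mapk8 and 25 in Mapk9, which leaves 62.5% and 65.3% in common. Exons of the same place are more alike across the genes, with 81.9% of bases in common for the first exons and 79.2% for the second. The second exon was in 91.2% of Mapk9 transcript abundance in replicate 1 and 91.1% in replicate 2, and in 79.8% and 73.2% for Mapk8. The second quantification gave 87.8% and 86.2% for Mapk9 and 87.2% and 84.6% for Mapk8. Both JNK genes thus used mainly the second exon in every one of the 4 measures. Which full transcript led was less steady. In Mapk9, Mapk9-201 led in replicate 1 with 42.1% and Mapk9-204 in replicate 2 with 41.1%. In Mapk8, Mapk8-203 led with 41.7% and Mapk8-201 with 36.2%.

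Mapk14 has a comparable pair of exclusive exons, 80 bases each on the + strand of chromosome 17, which share 48.8% of their bases. The first is at chr17:28737011-28737090 and the second at chr17:28740680-28740759.
Mapk14 first exon: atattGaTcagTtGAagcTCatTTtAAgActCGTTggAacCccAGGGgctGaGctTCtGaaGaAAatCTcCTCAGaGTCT
Mapk14 second exon: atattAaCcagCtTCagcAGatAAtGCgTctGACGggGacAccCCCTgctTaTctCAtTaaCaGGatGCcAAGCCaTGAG

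The first exon was in 83.4% of Mapk14 abundance in replicate 1 and 87.3% in replicate 2, and in 82.1% and 86.7% by the second quantification. The leading transcript, Mapk14-203, held 66.4% and 61.8%. It starts in another first exon, and its annotated reading frame of 849 bases begins within the second coding exon of the full-length forms Mapk14-201 and Mapk14-202, whose frame has 1080 bases. The full-length forms were at 11.1 and 6.61 TPM for Mapk14-201 and 10.7 and 7.28 TPM for Mapk14-202, against 44.8 and 37.5 TPM for Mapk14-203. The activation site printed above is common to all 3 forms.

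Optional exons that keep the reading frame were found in TAK1, MKK7 and BRAF. Those of these 3 kinases, which act above JNK, ERK and IKK, are shown as examples of exons both used and skipped in both libraries. In Map3k7 an exon of 81 bases (27 codons) at chr4:31994874-31994954 on the + strand was held by 53.1% and 44.5% of the abundance that spans it, so that neither form dominated. In Map2k7 an exon of 48 bases (16 codons) at chr8:4240688-4240735 on the + strand was held by 34.0% and 34.3%. In Braf, exons of 120 bases at chr6:39646725-39646844 and 36 bases at chr6:39648821-39648856, on the − strand, went together at 65.0% and 61.8%.
Map3k7 exon: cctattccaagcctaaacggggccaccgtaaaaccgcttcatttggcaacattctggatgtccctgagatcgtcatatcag
Map2k7 exon: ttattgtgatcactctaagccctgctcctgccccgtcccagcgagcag
Braf 120-base exon: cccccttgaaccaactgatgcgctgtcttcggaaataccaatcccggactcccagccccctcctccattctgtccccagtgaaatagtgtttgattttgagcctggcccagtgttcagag
Braf 36-base exon: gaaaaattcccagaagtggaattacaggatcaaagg

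By the second quantification these shares were 58.0% and 47.5% for Map3k7, 39.0% and 37.2% for Map2k7, and 57.4% and 49.3% for Braf. The Map2k7 exon moved least between libraries and the Map3k7 exon most of the 3. Map3k7-201, which holds the exon, led in replicate 1 with 52.0%, and Map3k7-202, which lacks it, led in replicate 2 with 50.9%. By the second quantification Map3k7-202 held 22.2% in replicate 2, where the processed transcript Map3k7-207 led with 31.25%. In Braf the leading transcript was Braf-201 (63.2% and 57.8%), which the second quantification replaced in replicate 2 by Braf-202. Optional exons were also found in Map4k4, Mapkapk5 and Map3k4, and several of these moved more between the libraries than those shown. A 192-base exon of Map4k4 was held by 47.3% and 63.8%. The 156-base exon of Map3k4 was held by 23.3% and 6.15%, in a gene with 560 and 417 reads.

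**Figure D4:**
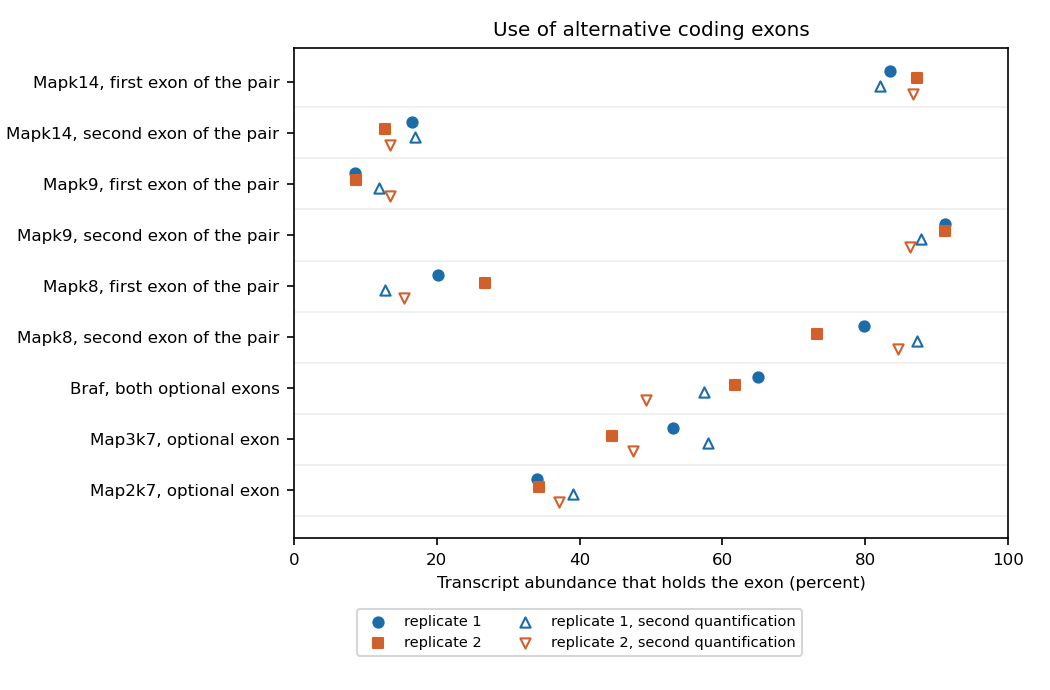
Percent of the transcript abundance spanning each alternative coding exon that holds it, with filled symbols for the main and open symbols for the second quantification and colour for the replicate. Mapk9 and Mapk8 used mainly the second exon of their pair and Mapk14 mainly the first, while the optional exons of Braf, Map3k7 and Map2k7 lay between 34.0% and 65.0%.

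The other members with divided transcripts fall into groups. In several, coding forms shared the gene. Map3k20 was split between the short form Map3k20-204, with a frame of 1362 bases (50.3% and 51.4%), and the long form Map3k20-201, with 2406 bases, and the 2 forms share their first coding exons. The leading transcript of Map4k4, Map4k4-213, held 42.8% and 55.4%. Rps6ka3-201 held 56.4% and 54.9%, and the second quantification put the short Rps6ka3-202 first in replicate 1. Tank-205 held 56.9% and 62.1%, Rps6ka1-206 75.9% and 71.3%, Azi2-201 59.9% and 59.7%, Map2k7-206 58.2% and 63.8%, and Map2k2-202 75.9% in both libraries.

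In others, transcripts of classes other than protein-coding took a large part. Protein-coding transcripts held under 80% in at least 1 library in 7 of the 41 members, against 26.8% of all such genes. The NF-κB kinase Ikbkb had 55.9% and 74.8% in coding transcripts, since the processed transcript Ikbkb-213 was at 20.8 and 9.46 TPM, and Ikbkb-201, the full-length form, went from 29.7 to 38.03 TPM. Map3k11 had 76.9% and 47.3%, as Map3k11-204, annotated as a target of nonsense-mediated decay, was at 7.69 and 18.4 TPM and led in replicate 2, while Map3k11-201 was at 33.7 and 17.5 TPM. By the second quantification Map3k11-201 led in replicate 2 too, with 45.3%, and coding transcripts held 62.3% there. Mapkapk5 had 85.4% and 49.6%, with the processed transcript Mapkapk5-211 at 4.77 and 36.4 TPM and Mapkapk5-205, which led in replicate 1, at 22.1 and 14.5 TPM. The annotated frame of Mapkapk5-205 has 972 bases. Forms with longer frames were lower, with Mapkapk5-201 (1419 bases) at 3.31 and 3.35 TPM and Mapkapk5-204 (1413 bases) at 12.5 and 0 TPM. Mapk7 had 65.4% and 53.7% in coding transcripts, and its leading form Mapk7-201 held 48.3% and 42.5%. Rps6ka5 had 86.1% and 57.6% and was led by Rps6ka5-209 (82.0% and 56.5%). Coding shares were for Map3k1 99.6% and 43.3% and for Mapk8 79.8% and 82.4%. By the second quantification they were 100% and 52.8% for Map3k1, and 86.3% and 96.1% for Mapk8.

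For Ikbkb and Mapkapk5 the gene's TPM and that of the coding form named here therefore differed between the libraries in opposite directions, and for Map3k11 in the same direction. By scaled counts the log2 ratio of the gene Ikbkb was 0.28, the same direction as the TPM of Ikbkb-201. Ikbke had coding transcripts at 85.1% and 88.0%, and its leading Ikbke-201 held 59.4% and 57.5%, or 133 and 138 TPM. Ikbkg was led by Ikbkg-202 in replicate 1 (48.1%) and by Ikbkg-216 in replicate 2 (34.0%), and by yet other transcripts in the second quantification. The remaining members below 90% in at least 1 library were Chuk (72.5% and 81.9%), Mapk6 (76.0% and 79.6%), Map3k4 (74.0% and 89.9%), Tbk1 (91.9% and 78.0%), Tab3 (90.4% and 81.5%), Tab2 (94.1% and 84.1%), Map3k8 (85.0% and 95.5%), Tab1 (93.3% and 89.95%) and Map3k5 (100% and 84.9%). In these the same transcript led in both libraries and quantifications. For 11 members, among them Mapkapk2, Mapk3, Map2k1 and Map2k3, a single transcript held 90% or more in both libraries. By the second quantification some of these fell below 90%. In replicate 2 Mapkapk2-201 held 74.6% and Mapk3-202 68.8%, and in replicate 1 Map2k4-201 held 82.7% and Mapkapk3-201 86.6%.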

How the data were processed

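PolyA plus RNA-seq was measured in 2 libraries of 1 group, so no condition was compared. Per the labels and the deposited notes, the build is mm10 and the annotation GENCODE M21. The programs used were not given in the sources. The deposited expected counts are estimated reads from transcriptome alignments. The deposited TPM values are length-corrected and scaled to a fixed total, the deposited FPKM values are scaled per kilobase and mapped fragments, and the deposited percent values are transcript shares of a gene. Another table of the authors holds estimated counts and TPM obtained without alignment, from an index, and its transcripts were added up per gene. This second quantification had no value for 86 of 55536 genes, which were set to 0.

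The gene table has 81881 rows, and rows that are not annotated genes were left out. Ratios used TMM library sizes (edgeR 4.0.16), a prior of 0.5 reads and a mean of at least 10 counts, with 2-fold as the threshold. The calculation of the ratios was tested on simulated counts with known fold changes. These counts held counting error only and changes well past the threshold, so the test says nothing on calls near 2-fold. DESeq2 1.42.0 size factors were an alternative. Transcript and exon shares were computed from TPM. An exon's share is the abundance of transcripts holding it over that of all transcripts spanning it, for exons that differ between coding transcripts at 5% or more in all 4 measures. Depth was 45377715 and 32112416 expected counts, and intervals and floors cover counting error only.

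Members and lists were chosen with earlier results of these data known. Named were every member at 10 TPM or more, each family, ratios past 2-fold and the nearest below, members with a leading transcript under 90%, and the 4 highest genes of each further list, of which 1 is not reported here. The rules on effective length, exons and activation sites were set after values were seen.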

Additional observations from a re-analysis of the deposited data

How the results depend on the processing

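No paired analysis was possible because the libraries form a single group. Of 104 recomputed counts, tier medians and leading paralog shares, 86 stayed within 1.5 times (counts) or 1 SD, and 18 moved. For the shares, leaving out 1 library cannot move the mean by more than 1 SD, so their agreement there was fixed in advance. Counting only members at 1 TPM or more changed the genes of the MAPK tier alone, so the medians of the other 7 tiers had to stay. In FPKM, which rescales every gene of a library by one factor, 2 members in place of 4 reached 100, and tier medians were 2.835 for TAB adaptors, 18.9 for MAP2Ks, 18.5 for MAPKs, 37.7 for MAPK-activated kinases, 14.0 for the IKK complex and 87.6 for the IKK-related tier. By the second quantification the medians of the MAPK-activated kinases and the IKK complex were 50.4 and 19.8 TPM, and the shares of Mapk14, Mapk9 and Mapkapk2 were 98.3%, 83.2% and 78.3%. Counting only members at 1 TPM or more raised the MAPK median to 52.3 TPM. Without replicate 1 or without replicate 2, the medians ranged from 4.35 to 5.08 TPM for TAB adaptors, from 48.9 to 54.9 TPM for MAPK-activated kinases and from 22.9 to 23.8 TPM for the IKK complex. With no filter on counts 5 members passed 2-fold, the further 2 being Mapk12 and Mapk13 with at most 4 reads. With library totals 4 passed, Map2k2 included. Tab2, Tab1 and Rps6ka5 passed under all 7 alternatives to the ratio. Those that changed only the count filter left the ratio itself as it was, so these 3 genes had to pass there. The alternatives by TPM differed from each other only in the pseudocount. In the second quantification the levels of 16 of 44 members and 9 of 19 exon shares moved by more than 1 SD. Precision is limited by 2 libraries, which carry a single donor identifier, and no value separates an effect of the second exposure from the resting level.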
